A study of Mus musculus with 66 samples.

Results

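The levels of 10 heat-shock chaperone genes were followed across the day in mouse ventral striatum: Hspa1a, Hspa1b, Hspa4, Hspa8, Hsp90aa1, Hsp90ab1, Hsph1, Hspd1, Hspe1 and Chordc1. They were found by symbol in the deposited gene table, where each has 1 row, so that 10 of 24138 listed genes are described here. Their levels are FPKM, fragments normalized to transcript length and to the number of mapped reads, in 66 RNA-seq libraries from tissue punches. The mice were C57BL/6 males (C57BL/6J in the study's methods) of 3 to 5 months, either wild type (WT) or iMSN-D2RKO. In iMSN-D2RKO mice (D2R flox/flox/D1R-CRE+/-) both D2R alleles are floxed and Cre is driven by the D1R promoter, since projection neuron precursors in the embryo express both receptors. The dopamine D2 receptor is thereby lost from indirect-pathway neurons (iMSNs). Mice received saline or 20 mg/kg cocaine intraperitoneally at ZT3, zeitgeber time counted from lights on in a 12 h light, 12 h dark cycle. Tissue was taken at ZT7, ZT11, ZT15, ZT19 and ZT23 after either injection, and at ZT3, which gives 22 groups of 3 libraries. The ZT3 libraries open both the saline and the cocaine series of their genotype, so each of the 4 series has 6 time points and 18 libraries. The labels do not say whether the libraries of a group came from separate mice, so p-values measure only the spread between these libraries.

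Heat-shock chaperones bind unfolded or partly folded proteins and use ATP to release them in a foldable state. Most of these genes are switched on by heat-shock factor 1, which binds repeats of a short sequence, the heat-shock element, when misfolded protein or body temperature rises. In nocturnal rodents body temperature follows the activity rhythm and is highest in the dark phase, and temperature-driven chaperone rhythms are known from several tissues.

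Sequences before the start sites were read from RefSeq (GRCm38.p6, the build called mm10) for 7 of the 10 genes. Hspa8, Hsp90aa1 and Hsp90ab1 have no entry. The 250 bases before each start were searched on both strands for GAANNTTC and TTCNNGAA, each of which pairs 2 units of the heat-shock element, and for the forms with 3 units, GAANNTTCNNGAA or TTCNNGAANNTTC, which contain both pairs. Of all 27025 genes with a window, 7.73% hold GAANNTTC, 8.11% hold TTCNNGAA and 0.514% hold a form with 3 units. Hspd1 (chr1:55077833-55088243) and Hspe1 (chr1:55088148-55091317), the mitochondrial pair, are transcribed away from each other, and their windows overlap and share 1 run of 18 matching bases with 4 units. It lies from -89 to -72 before the Hspe1 start and from -144 to -127 before an Hspd1 start; another annotated Hspd1 start has no match in its window. The 30 bases around the matches (match in capitals, 5′ to 3′ on the strand of the gene) are printed to show how the elements of the genes compare.
Hspe1, chr1:55088053-55088082, plus strand: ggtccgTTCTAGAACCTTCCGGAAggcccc
Hspd1, chr1:55088053-55088082, minus strand: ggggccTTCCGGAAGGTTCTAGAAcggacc
Hsph1, chr5:149636351-149636380, minus strand: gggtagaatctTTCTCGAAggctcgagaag
Hspa1a, chr17:34972242-34972271, minus strand: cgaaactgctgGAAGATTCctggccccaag
Hspa1b, chr17:34959324-34959353, minus strand: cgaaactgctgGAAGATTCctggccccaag
The first pair are the same bases read from opposite strands. Hspa1a and Hspa1b, neighbours on chromosome 17, have the same 30 bases, and their windows are identical at 247 of 250 positions. No match was found in the windows of Hspa4 and Chordc1. A match describes letters, not binding.

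How well a level can be assigned to 1 gene differs among these chaperones. Of the 100-base windows of the longest coding transcript in GENCODE vM21, as long as the reads, 47.1% of those of Hspa1a occur unchanged in Hspa1b, and 49.9% of those of Hspa1b in Hspa1a. For Hspa8 62.8%, for Hsp90aa1 47.5%, for Hspd1 26.9% and for Hspe1 20.4% of windows occur in a transcript of some other gene, mostly Gm15459, Gm12346, Hspd1-ps3 and AC117239.2 in that order. Hsp90ab1, Hsph1, Hspa4 and Chordc1 share none. The levels of Hspa1a, Hspa1b, Hspa8, Hsp90aa1, Hspd1 and Hspe1 are therefore uncertain to the extent that the authors' counting split or moved reads between such copies.

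In level the genes fell into 3 tiers. Hsp90ab1, the constitutive cytosolic HSP90, averaged 843 FPKM over the 66 libraries and ranked 24th of all listed genes. In the middle came, in descending order, Hspa8 (the constitutive HSP70, 166 FPKM), Hsph1 (an HSP110 nucleotide exchange factor, 124 FPKM), Hspa4 (a second HSP110 relative, 63.1 FPKM), Hsp90aa1 (the inducible HSP90, 57.6 FPKM), Hspe1 (the mitochondrial 10 kDa co-chaperonin, 50.1 FPKM), Hspd1 (the mitochondrial chaperonin, 33.1 FPKM) and Chordc1 (an HSP90 co-chaperone, 29.4 FPKM). The stress-inducible HSP70 genes were lowest, Hspa1a at 1.65 FPKM and Hspa1b at 1.30 FPKM. Neighbours in this order overlapped in range except at the edges of the tiers: the lowest Hsp90ab1 value was 483 FPKM against a highest Hspa8 value of 437 FPKM, and the lowest Chordc1 value was 16.1 FPKM against a highest Hspa1a value of 3.61 FPKM. The spread inside a group was smallest for Hspd1, with a median coefficient of variation of 7.57% over the 22 groups, and larger for Hspa8 (32.0%) and Hspa1b (39.2%).

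Total FPKM per library ran from 364078 to 690048, and read numbers are not given in the sources used here. A set of 13 libraries stood apart from the other 53 on the leading principal axis of the within-group deviations of 9505 genes, an axis built with the chaperones left out and holding 43.6% of their variance. They fall in 10 groups, 3 libraries each in WT saline, WT cocaine and iMSN-D2RKO cocaine and 4 in iMSN-D2RKO saline. All but 1 of them, iMSN-D2RKO cocaine ZT7 replicate 2, are from ZT15, ZT19 or ZT23, so they bear on every comparison of dark with light, and their part in these results was not tested beyond the values without them. The library iMSN-D2RKO saline ZT7 replicate 1 had the largest total and the highest summed level of striatal projection neuron markers, 15629 FPKM against a median of 4167 FPKM. Drd2 was between 99.1 and 304 FPKM (median 129) in WT and between 78.0 and 375 FPKM (median 112) in iMSN-D2RKO, so this whole-gene level in whole tissue did not separate the genotypes and does not check the labels. All 10 striatal markers had a median of at least 0.1 FPKM. Their sum had a median of 4330 FPKM in dark and 3934 FPKM in light libraries, and of 3710 FPKM in WT and 4859 FPKM in iMSN-D2RKO. Summed markers of other cell types differed between these groups as well. The summed astrocyte markers had a median of 365 FPKM (294 to 385) in the 13 libraries that stand apart and of 244 FPKM (169 to 406) in the others. Single astrocyte markers did not all move alike. Within groups that hold both kinds, the mean log2(FPKM + 1) difference was 0.72 for Aqp4, 0.60 for Slc1a3, 0.44 for Gja1 and 0.22 for Gfap. For Aldh1l1 it was -0.49. The summed oligodendrocyte markers had a median of 2277 FPKM (1738 to 3520) in the 13 and of 2912 FPKM (1885 to 5290) in the others, and of 3000.1 FPKM in WT and 2537 FPKM in iMSN-D2RKO. Cortical projection neuron markers summed to between 4.33 and 291 FPKM and choroid plexus and ependyma markers to between 3.70 and 1142 FPKM per library. The part of these markers in the results was not tested. Fewer cells of a type and less RNA per cell cannot be told apart in such tissue.

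Several chaperones differed between the libraries that stood apart and the others of the same group. Averaged over the 10 groups that hold both kinds, the log2 difference was 0.86 for Hspa8, 0.71 for Chordc1 and 0.62 for Hsp90ab1, and it was positive in 10 of 10 groups for Chordc1. Hsph1 (0.33), Hspa4 (0.23), Hspe1 (0.20) and Hspd1 (0.07) differed less. Hsp90aa1 (-0.17) was lower in 10 of 10 groups, and Hspa1a (-0.26) and Hspa1b (-0.45) in 9 of 10. Over the 9584 genes with a mean above 5 FPKM the median was 0.07, with the 5th to 95th percentile from -0.99 to 0.95. The means of the 10 chaperones lay inside that range.

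**Figure D1:**
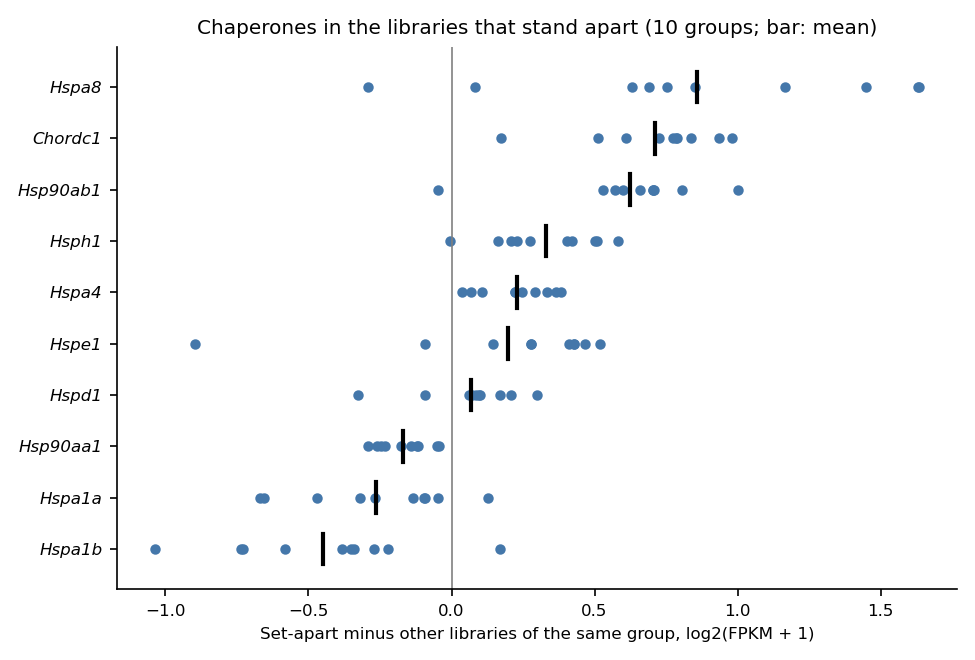
Log2(FPKM + 1) difference between the libraries that stand apart and the other libraries of the same group, for each chaperone. Each point is 1 of 10 groups and each bar the mean over them, from 0.86 for Hspa8 to -0.45 for Hspa1b.

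In WT mice, 6 of the 10 chaperones followed a daily cycle with its peak between ZT19 and ZT0, late in the dark phase. Rhythm was tested with the rules of JTK_CYCLE, a rank test for cycles of 20 or 24 h, and a gene was called rhythmic when its p, corrected for the 11 period and phase pairs, was under 0.01. In the WT saline series 6 chaperones were called (9.57% of 14405 genes tested were) and 6 in WT cocaine (7.56% of genes). In iMSN-D2RKO saline 0 were called (2.57% of 14267 genes; smallest corrected p 0.0106, for Chordc1) and 2 in iMSN-D2RKO cocaine (1.09% of genes). The 6 called in both WT series were the same genes, Hspa4, Hsph1, Hsp90aa1, Chordc1, Hspd1 and Hspe1; the WT series share their ZT3 libraries. Without the 13 libraries that stand apart the counts in the same order of series were 5, 1, 0 and 1, beside 6.27%, 2.34%, 1.21% and 1.89% of all genes. Leaving out 1 replicate number at a time gave 0 to 4 in WT saline (1.44% to 5.54% of genes), 1 to 5 in WT cocaine (1.49% to 5.95%), 0 to 1 in iMSN-D2RKO saline (0.561% to 6.60%) and 0 to 2 in iMSN-D2RKO cocaine (0.414% to 1.023%). The 2 called in iMSN-D2RKO cocaine were Hspa1a and Hspa1b.

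**Figure D2:**
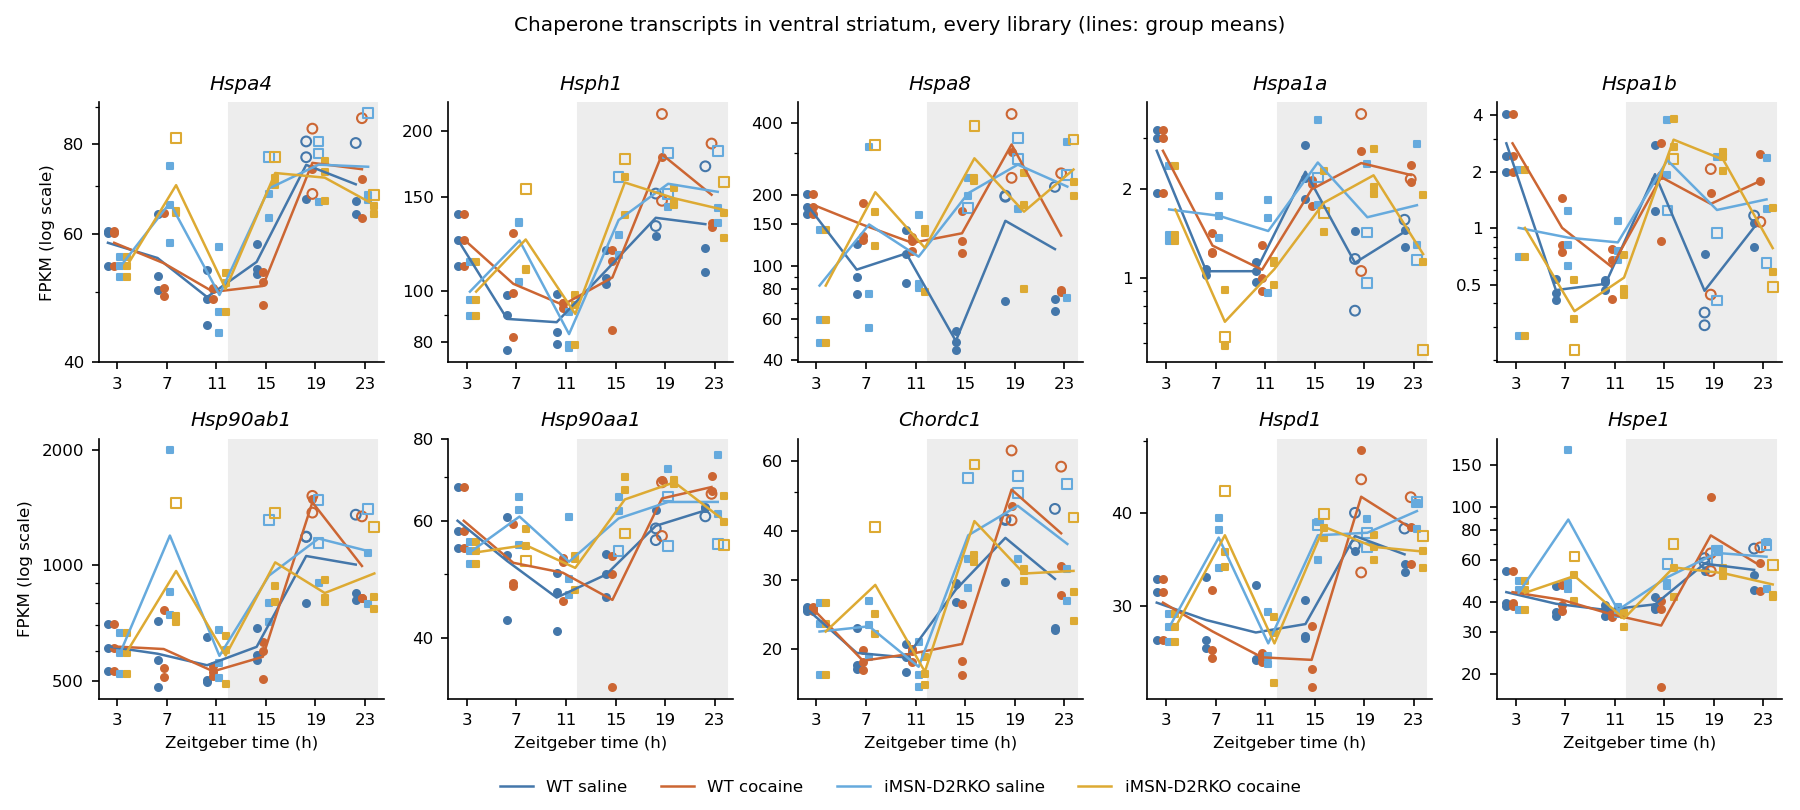
FPKM of the 10 chaperones (log axis) against zeitgeber time (h) in the 4 series, with the dark phase in grey. Points are libraries, open points the 13 libraries that stand apart, and lines join group means of 3 libraries; ZT3 libraries are drawn in both series of their genotype. Hspd1 after cocaine, for example, is at 23.4 to 28.2 FPKM in WT and 37.0 to 39.9 FPKM in iMSN-D2RKO at ZT15.

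Chordc1, which links HSP90 to its clients, had the smallest p of the chaperones in WT saline. Its 3 libraries were at 18.3, 17.8 and 22.6 FPKM at ZT7, at 20.6, 17.5 and 19.1 FPKM at ZT11, and at 42.6, 42.8 and 29.7 FPKM at ZT19. The corrected exact JTK p was 9.12e-06 with a peak at ZT19, and the ranges at ZT11 and ZT19 did not overlap. Here and in the next paragraphs such times are those of a gene's lowest and highest group means in WT saline. They were picked from the values, so a lack of overlap is no separate support for a rhythm. Hspa8, called in no series, had none either, at 165 to 201 FPKM at ZT3 and 44.1 to 53.1 FPKM at ZT15 in WT saline. In WT cocaine Chordc1 reached 42.5, 46.1 and 63.9 FPKM at ZT19 after 19.8, 18.6 and 20.1 FPKM at ZT11. Its corrected exact JTK p in that series was 7.55e-04, with a peak at ZT21. The 2 ZT19 libraries of WT saline with the most Chordc1 are among those that stand apart.

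The HSP110 proteins, which recharge HSP70 with ATP, rose by smaller steps. Hsph1 in WT saline stood at 98.6, 79.4 and 83.6 FPKM at ZT11 and at 152, 132 and 127 FPKM at ZT19, without overlap (corrected exact JTK p = 1.90e-04, peak ZT21). Hspa4 stood at 53.6, 45.0 and 48.9 FPKM at ZT11 and at 80.6, 76.7 and 67.2 FPKM at ZT19, again without overlap (corrected exact JTK p = 3.07e-04, peak ZT23). In WT cocaine the corrected p was 0.00371 for Hsph1 and 0.00115 for Hspa4.

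The mitochondrial pair kept the same time course. Hspd1, whose barrel folds proteins inside mitochondria, was at 32.1, 25.5 and 25.5 FPKM at ZT11 and at 40.02, 36.2 and 35.6 FPKM at ZT19 in WT saline. Hspe1, the lid of that barrel, was at 39.0, 37.3 and 34.9 FPKM at ZT11 and at 58.6, 61.2 and 54.1 FPKM at ZT19. Neither gene's libraries overlapped between these times. The corrected exact JTK p was 9.05e-04 for Hspd1 and 0.00371 for Hspe1, both with a peak at ZT23, and in WT cocaine it was 0.00533 and 0.00255.

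Of the HSP90 genes, Hsp90aa1 was called and Hsp90ab1 was not. Hsp90aa1 in WT saline went from 50.2, 41.0 and 46.9 FPKM at ZT11 to 61.1, 62.8 and 63.1 FPKM at ZT23, without overlap (corrected exact JTK p = 0.00255). Hsp90ab1 had the larger excursion, from 650, 502 and 497 FPKM at ZT11 to 1189, 1187 and 799.9 FPKM at ZT19 in WT saline and from 515, 547 and 528 FPKM to 1373, 1492 and 1518 FPKM in WT cocaine. Its corrected p was 0.0154 and 0.0216, above the threshold. In both series Dixon's test, which leaves out 1 of 3 replicates that lies far off, removed 1 Hsp90ab1 value, and with all replicates kept Hsp90ab1 was called in both (0.00371 and 0.00533).

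The constitutive HSP70 gene Hspa8 had no rhythm call in any series, with corrected exact JTK p between 0.133 and 0.586. In WT saline its lowest group was ZT15, at 53.1, 47.6 and 44.1 FPKM, and at ZT23 the libraries were at 215, 64.9 and 72.9 FPKM, the first of which stands apart. Without the 13 libraries the corrected p in WT saline was 0.00501. The inducible genes had another course. In WT, Hspa1b was at 2.01, 2.44 and 4.06 FPKM at ZT3, at 0.538, 0.454 and 0.417 FPKM at ZT7 after saline, and at 1.82, 2.77 and 1.24 FPKM at ZT15. Hspa1a was at 1.95, 2.99 and 3.18 FPKM at ZT3, at 1.06, 1.018 and 1.07 FPKM at ZT7 after saline and at 2.19, 2.83 and 1.86 FPKM at ZT15. ZT3 and ZT15 were both above ZT7 for these genes, in every library. How many of all genes show this is not given here. JTK called neither gene in WT; Hspa1a in WT cocaine came closest, with a corrected p of 0.0108.

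In iMSN-D2RKO cocaine, Hspa1a was called with a corrected exact JTK p of 4.86e-04 and Hspa1b with 0.00371, both with a peak at ZT19. Hspa1b was at 0.330, 0.225 and 0.533 FPKM at ZT7, at 3.83, 2.72 and 2.35 FPKM at ZT15 and at 2.55, 2.40 and 2.03 FPKM at ZT19. Summed over both genes, which does not depend on how reads were split between them, the level was 1.07 ± 0.199 FPKM at ZT7, 4.77 ± 1.19 FPKM at ZT15 and 4.55 ± 0.678 FPKM at ZT19 (SD, n = 3).

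The calls of the genotypes differ in number, but a call in one series and none in another does not test the difference. The difference in rhythm itself was not tested. A narrower difference was tested, in the change from light (ZT7 and ZT11) to dark (ZT15, ZT19 and ZT23). The test was 1 limma fit of log2(FPKM + 1) over all 66 libraries with Benjamini-Hochberg adjustment over 14643 genes. It leaves out ZT3 and averages over the times inside each phase, so it cannot show that the courses were alike. Hspd1 after cocaine, for example, averaged 25.6 FPKM at ZT11 and 25.4 FPKM at ZT15 in WT, and 26.8 and 38.3 FPKM in iMSN-D2RKO. In iMSN-D2RKO minus WT, averaged over treatments, limma called 0 of 10 chaperones and 0 genes (0%) at an adjusted p under 0.05. At an unadjusted p under 0.05 it was 1 chaperone, Hspa8, and 501 genes. The difference of differences was -0.05 for Hspd1 (SE 0.07), -0.04 for Hspa4 (SE 0.08), 0.01 for Hsph1 (SE 0.11) and 0.03 for Chordc1 (SE 0.17) on the log2 scale. For Hsp90ab1 it was -0.30 (SE 0.18) and for Hspa8 0.72 (SE 0.33, adjusted p = 0.999).

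The difference between dark and light was positive for the 10 chaperones in all 4 series, with 1 exception, Hspa8 in WT saline. In WT saline Hspa8 was at -0.21. The median log2 difference, dark minus light, over the 10 chaperones was 0.35 in WT saline, 0.45 in WT cocaine, 0.37 in iMSN-D2RKO saline and 0.42 in iMSN-D2RKO cocaine, beside 0.05, 0.06, 0.02 and 0.01 over all genes tested. At an limma adjusted p under 0.05, 0 chaperones were called in WT saline (0.0615% of all genes), 6 in WT cocaine (5.72%), 4 in iMSN-D2RKO saline (9.38%) and 2 in iMSN-D2RKO cocaine (0.239%), all of them higher in the dark. In WT saline 9 of the 10 had an unadjusted p under 0.05, as had 2887 genes, and the rhythm test of the same series called 6, so the 0 does not show that they did not differ.

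**Figure D3:**
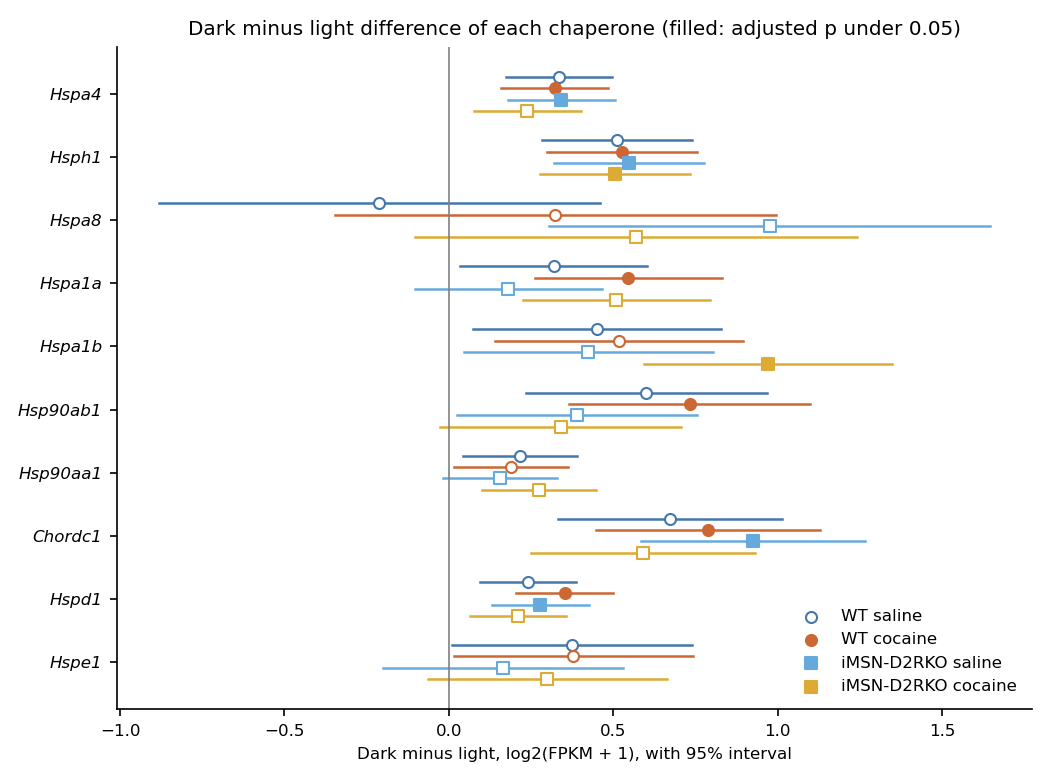
Dark minus light difference of each chaperone in log2(FPKM + 1) with its 95% interval from limma, in the 4 series (circles WT, squares iMSN-D2RKO). Filled points have an adjusted p under 0.05: 0 in WT saline, 6 in WT cocaine, 4 in iMSN-D2RKO saline and 2 in iMSN-D2RKO cocaine; Chordc1 reaches 0.93 in iMSN-D2RKO saline, and Hspa8 in WT saline, at -0.21, is the only value below 0.

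Hsph1 gave nearly the same step in every series. In WT saline its dark libraries ran from 103 to 172 FPKM (median 120) and its light libraries from 77.2 to 98.6 FPKM (median 86.8), so that 9 of 9 dark libraries were above every light one. How many of all genes were separated in this way is not given here. The fold was 1.42 in WT saline, 1.44 in WT cocaine (limma adjusted p = 0.00646), 1.46 in iMSN-D2RKO saline (0.00877) and 1.42 in iMSN-D2RKO cocaine (0.0336). With all libraries, Hsph1 was the only chaperone called in 3 series, and its limma adjusted p in WT saline was 0.0613.

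Chordc1 had a larger step. Its fold was 1.59 in WT saline (95% interval 1.26 to 2.02), 1.73 in WT cocaine (1.36 to 2.19), 1.90 in iMSN-D2RKO saline (1.5004 to 2.40) and 1.505 in iMSN-D2RKO cocaine (1.19 to 1.90). It was called in WT cocaine (limma adjusted p = 0.00637) and iMSN-D2RKO saline (0.00519). Hspd1 rose 1.28-fold in WT cocaine (limma adjusted p = 0.00603) and 1.21-fold in iMSN-D2RKO saline (0.0257). Hspa4 rose 1.25-fold (0.0171) and 1.27-fold (0.0155) in these series. In WT cocaine, Hsp90ab1 rose 1.66-fold (0.0158) and Hspa1a 1.46-fold (0.0207), and in iMSN-D2RKO cocaine Hspa1b rose 1.96-fold (0.0137). These are folds of FPKM + 1, which understate the change in level of genes as low as Hspa1a and Hspa1b. Hspa1a in WT cocaine averaged 2.23 FPKM in dark and 1.17 FPKM in light libraries. Hspa1b in iMSN-D2RKO cocaine averaged 2.03 FPKM in dark and 0.455 FPKM in light libraries.

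Not called in any series were Hspe1, with folds from 1.12 to 1.30, Hsp90aa1, with folds from 1.11 to 1.21, and Hspa8, with folds from 0.863 to 1.97. Hspe1 carried 1 extreme light value, 173 FPKM in iMSN-D2RKO saline ZT7 replicate 1, against 48.1 and 45.3 FPKM in the other libraries of that group. In that library Hsp90ab1 was at 1993 FPKM against 741 and 855 FPKM, and Hspd1 at 39.4 FPKM against 33.8 and 38.0 FPKM. Without it, limma called 3 chaperones in iMSN-D2RKO saline and 2 in WT saline. The share of all genes called in that fit is not given here, so these counts cannot be set against it. Without the 13 libraries that stand apart limma called 0, 7, 1 and 4 chaperones in WT saline, WT cocaine, iMSN-D2RKO saline and iMSN-D2RKO cocaine, beside 0.0615%, 15.4%, 0.212% and 0.601% of all genes. Leaving out replicates 1, 2 or 3 in turn gave 0, 5 and 0 chaperones in WT cocaine (0.253%, 7.57% and 0.0205% of genes) and 0, 3 and 0 in iMSN-D2RKO saline (0%, 22.9% and 0.00683%). In WT saline and in iMSN-D2RKO cocaine each of these fits called 0 chaperones and at most 0.0615% of genes, so the calls of Hsph1 and Hspa1b in iMSN-D2RKO cocaine were lost in all of them.

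At ZT15, early in the dark phase, the genotypes differed after cocaine, though the calls did not hold in every fit that left libraries out. With all libraries, 5 of the 10 chaperones were higher in iMSN-D2RKO than in WT there in limma (4.4% of all genes were called): Hspd1, Hspa4, Hsp90aa1, Hsph1 and Chordc1. These were the only calls among 110 pairs of chaperone and genotype contrast (1.77% of all gene and contrast pairs). Hspd1 was at 28.2, 24.7 and 23.4 FPKM in WT and at 38.1, 37.0 and 39.9 FPKM in iMSN-D2RKO, a log2 difference of 0.58 (SE 0.11, limma adjusted p = 0.00592). Every iMSN-D2RKO library was above every WT library.

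The other genes called at ZT15 did not overlap between the genotypes either. All 5 were picked by their adjusted p in this same contrast, so the lack of overlap is no further support. The share of all genes without overlap there is not given here. Hspa4 was at 53.3, 47.9 and 51.6 FPKM in WT and at 71.9, 70.3 and 76.7 FPKM in iMSN-D2RKO (log2 difference 0.51, SE 0.12, limma adjusted p = 0.0216). Chordc1 was at 26.03, 18.6 and 17.2 FPKM and at 33.3, 34.7 and 58.9 FPKM (0.98, SE 0.26, limma adjusted p = 0.0302). Hsph1 was at 114, 84.4 and 119 FPKM and at 164, 139 and 177 FPKM (0.60, SE 0.18, limma adjusted p = 0.0418). For Hsp90aa1 the values were 53.3, 50.0 and 33.7 FPKM and 69.9, 66.9 and 57.5 FPKM (0.52, SE 0.13, limma adjusted p = 0.0251). Replicate 3 of the iMSN-D2RKO group is among the 13 libraries that stand apart; without these libraries 4 of the 5 were called, all but Hsph1 (2.79% of all genes), and the Chordc1 difference was 0.72 (SE 0.15). Without the 7 libraries that a first version of the axis marked, 1 was called, Hspd1 (0.232% of genes). Leaving out replicates 1, 2 or 3 in turn gave 3, 0 and 0 calls (5.35%, 0.512% and 0% of genes), and the 3 were Hspd1, Chordc1 and Hspe1, the last of which is not among the 5. Without the library iMSN-D2RKO saline ZT7 replicate 1 there were 7 (8.21% of genes). The difference was positive for 9 of the 10 chaperones in each of these fits.

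**Figure D4:**
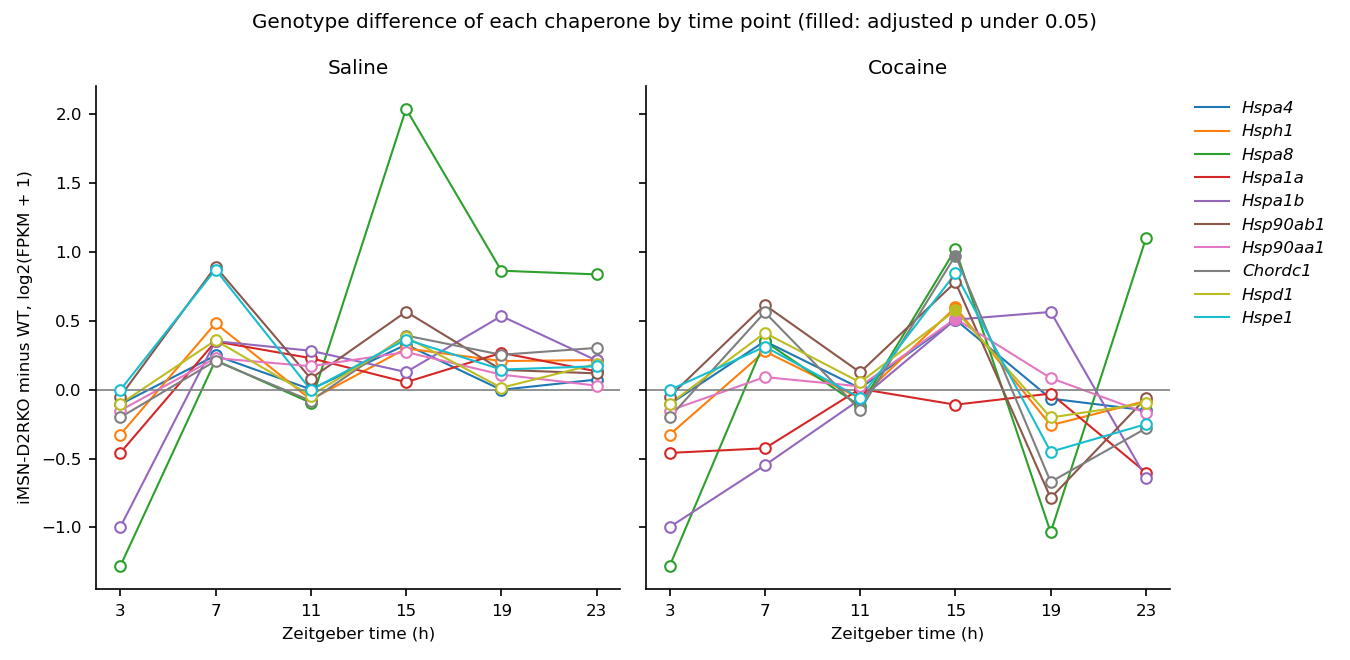
iMSN-D2RKO minus WT difference of each chaperone in log2(FPKM + 1) against zeitgeber time (h), after saline (left) and cocaine (right); the ZT3 values are the same in both panels. Filled points have an limma adjusted p under 0.05, which only the 5 called at ZT15 after cocaine have; the highest point is Hspa8 at ZT15 after saline, 2.04, which is not called.

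At the same time after saline the difference was positive for all 10 chaperones, and limma called 0 of them (5 chaperones and 773 genes at an unadjusted p under 0.05). The widest gap was that of Hspa8, at 53.1, 47.6 and 44.1 FPKM in WT and 234, 176 and 198 FPKM in iMSN-D2RKO, a log2 difference of 2.04 (SE 0.52, limma adjusted p = 0.315). Its groups did not overlap, but the share of all genes without overlap in this contrast is not given here. Hspd1 was 0.38 higher (SE 0.11, limma adjusted p = 0.617). At ZT19 after cocaine the difference was negative for 8 of the 10, with a median of -0.23, and limma called 0 (2 at an unadjusted p under 0.05); 1743 genes were called there. The WT cocaine ZT19 group holds 2 of the libraries that stand apart and the iMSN-D2RKO cocaine ZT19 group none. Without the 13 libraries the difference at ZT19 was -0.42 for Hspd1 and -0.55 for Chordc1. That fit leaves 1 WT library in the contrast, with Hspd1 at 48.5 FPKM, so only the size of the difference is given.

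At ZT3 the difference was negative for all 10, with a median of -0.18 and 0 called in limma (3 chaperones and 298 genes at an unadjusted p under 0.05). Many of these genes have correlated courses (Pearson's r of 0.97 between Hspa4 and Hspd1 over the 22 group means). Shared signs at ZT3, ZT15 and ZT19 are therefore not 10 separate observations. The medians over all genes at single time points are not given here. Hspa1b at ZT3 was at 2.01, 2.44 and 4.06 FPKM in WT and at 0.704, 0.268 and 2.05 FPKM in iMSN-D2RKO (log2 difference -0.997, SE 0.29, limma adjusted p = 0.526), and the groups overlapped in 1 library.

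Over ZT7 to ZT23 together, iMSN-D2RKO minus WT was positive for all 10 chaperones after saline, from 0.13 for Hspa4 to 0.77 for Hspa8. Their median was 0.22, beside 0.01 over all genes tested. Limma called 0 of the 10 chaperones (0.212% of all genes), and 9 had an unadjusted p under 0.05, as had 1648 genes. With the score of each library on the first axis as a covariate, 5 chaperones were called. The share of all genes called in that fit is not given here, so this count cannot be set against it. After cocaine the median of the chaperones was 0.10, beside 0.009 over all genes tested. Limma called 0 chaperones there (0.109% of all genes), and 3 had an unadjusted p under 0.05, along with 725 genes.

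Cocaine against saline moved no chaperone past the threshold. Over ZT7 to ZT23 limma called 0 of 10 in WT (0.0137% of all genes) and 0 of 10 in iMSN-D2RKO (0% of genes), and 0 of 100 pairs of chaperone and time point (0.00478% of all gene and time point pairs). At an unadjusted p under 0.05 it was 4 chaperones and 364 genes in WT, and 1 chaperone, Hspa1a, and 711 genes in iMSN-D2RKO. The 4 in WT were Hspa8 (log2 difference 0.73, SE 0.23), Hspa1b (0.31, SE 0.13), Hspa1a (0.22, SE 0.10) and Hsph1 (0.17, SE 0.08), each with an limma adjusted p of 1. Hspa8 at ZT15 in WT was at 171, 128 and 113 FPKM after cocaine and at 53.1, 47.6 and 44.1 FPKM after saline, without overlap. For all genes the share without overlap there is not given here. The test of the cocaine effect between genotypes called 0 chaperones (0% of genes; 1 chaperone, Hspa1a at -0.44, SE 0.14, and 271 genes at an unadjusted p under 0.05). The dark minus light difference, cocaine minus saline, called 0 chaperones as well (0.00683% of genes; 0 chaperones and 250 genes at an unadjusted p under 0.05).

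Other genes of the chaperone system were counted in lists. Of 16 tested partners of HSP90 and its relatives, 4 were rhythmic by JTK in WT saline and 7 in WT cocaine, and 0 in either iMSN-D2RKO series, beside 9.57%, 7.56%, 2.57% and 1.09% of all genes in these 4 series, so that the 0 of 16 is close to the share of all genes there. The same shares apply to the JTK counts of the lists that follow. They include Stip1, which hands clients from HSP70 to HSP90, and Ahsa1, which stimulates the ATPase of HSP90. In the dark minus light comparison limma called 0, 6, 3 and 0 of the 16 in WT saline, WT cocaine, iMSN-D2RKO saline and iMSN-D2RKO cocaine, all higher in the dark, beside 0.0615%, 5.72%, 9.38% and 0.239% of all genes. Stip1 was 0.68 higher in WT cocaine (SE 0.14, limma adjusted p = 0.00603). Of the 8 subunits of TRiC, the cytosolic chaperonin, 3 and 5 were rhythmic in the WT series and 1 and 0 in the iMSN-D2RKO series. For dark minus light limma called 0, 1, 1 and 0 of the 8 in the same 4 series. The 1 in WT cocaine was Cct6a, 0.37 higher in the dark (SE 0.09, limma adjusted p = 0.0114).

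Of 18 J proteins and HSP70 co-chaperones, JTK called 5 in WT saline, 0 in WT cocaine, 0 in iMSN-D2RKO saline and 2 in iMSN-D2RKO cocaine, among them Dnajb4 in WT saline (corrected exact JTK p = 1.90e-04). Of 9 other HSP70 and HSP110 relatives JTK called 1, Hspa4l in WT saline, and Hspa5, the HSP70 of the endoplasmic reticulum, was higher in the dark in WT cocaine (0.60, SE 0.13, limma adjusted p = 0.00823), iMSN-D2RKO saline (0.47, SE 0.13, 0.0341) and iMSN-D2RKO cocaine (0.67, SE 0.13, 0.0137). Of 7 small heat-shock proteins JTK and the limma test of dark minus light called 0 in every series. Of 3 heat-shock factors and Hsbp1, which binds such a factor, both tests called 1, Hsf2, in iMSN-D2RKO saline (corrected exact JTK p = 0.00745) and 0 in the other series. The 2 cold-inducible RNA-binding genes, Cirbp and Rbm3, went the other way, lower in the dark in every series. Limma called 0, 1, 2 and 0 of them in WT saline, WT cocaine, iMSN-D2RKO saline and iMSN-D2RKO cocaine. Cirbp was 1.08 lower in the dark in WT cocaine (log2 difference -1.08, SE 0.22, limma adjusted p = 0.00603). JTK called 1 of the 2 in each of WT saline, WT cocaine and iMSN-D2RKO saline, and 0 in iMSN-D2RKO cocaine. The 1 in WT saline was Cirbp, with a peak at ZT11 (corrected exact JTK p = 6.21e-06).

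Immediate early genes, which mark recent neuronal activity, were listed beside the chaperones. Of 15, limma called 10 higher in the dark in WT cocaine, 4 in iMSN-D2RKO cocaine, 1 in iMSN-D2RKO saline and 0 in WT saline, beside 5.72%, 0.239%, 9.38% and 0.0615% of all genes. For cocaine minus saline limma called 1 of the 15 in WT (0.0137% of all genes) and 0 in iMSN-D2RKO (0%). The 1 was Nr4a1, 0.70 higher after cocaine than after saline in WT (SE 0.14, limma adjusted p = 0.0326). Of the 15, 2 were called higher in iMSN-D2RKO than in WT after saline (0.212% of all genes), a comparison in which no chaperone was called. Nr4a1 was 1 of these, 0.82 higher (SE 0.14, limma adjusted p = 4.84e-04).

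The genes with the most similar course over the 22 group means, among 9584 genes with a mean above 5 FPKM, were other chaperones for Hspa4 and Hspd1 when all libraries were used. Pearson's r of Hspa4 was 0.9748 with Hspd1, 0.969 with Hsp90b1, the HSP90 of the endoplasmic reticulum, and 0.965 with Stip1. Hspd1 came closest to Hspa4 and Hsp90b1 and then to Cct6a (0.9698). Hsph1 came closest to Mettl16 (0.961), Chordc1 to Ints8 (0.974) and Dnajb4 (0.968), Hspe1 to Apip (0.978), Hsp90ab1 to Kin (0.989), Hsp90aa1 to Ppp1r3c (0.916) and Hspa8 to Tmod3 (0.846). Hspa1b stood with the activity-linked genes Egr2 (0.833) and Nr4a3 (0.828) and with Xbp1 (0.834), and Hspa1a with P4ha2 (0.807), Egr1 (0.801) and Midn (0.792). The lowest r among the 10 chaperones was 0.0714, between Hspa1a and Hspa8. The group means share the libraries that stand apart; without these Hspa4 came closest to Zcchc9 (0.953) and then to Hspd1 (0.942), and Hspd1 to Zc3h15 (0.969996), with Hsp90b1 (0.963) in the third place. Hspa1b then came closest to Dnajb1 (0.865), a J protein, and Egr2 and Nr4a3 left its closest 3, as Egr1 left those of Hspa1a.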

How the data were processed

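RNA from frozen ventral striatum punches was sequenced as 100-nt reads. The authors called bases with CASAVA 1.8.2, aligned reads to mm10 with TopHat and Bowtie, and assembled and normalized them with Cufflinks and Cuffnorm. The deposited FPKM table has 24138 genes and 72 columns, 6 of which list ZT3 libraries again with identical values. Depth is not given in the sources used here, so no counting interval can be set; the spread over 3 libraries per group gives the precision.

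Rhythm was tested per series with the rules of JTK_CYCLE, rewritten in Python 3.11.15, for genes at 1 FPKM or more in at least 1 library of the genotype. Dixon's test at the 95% level left out at most 1 of 3 replicates. A first run used the 90% level in error; it was corrected after calls had been compared with the calls the study lists, and both levels are given. Differences on the log2(FPKM + 1) scale were tested in limma (version 3.58.1; R 4.3.3), with 1 mean for each of 22 groups, moderation with trend, and Benjamini-Hochberg adjustment over 14643 genes; the pseudocount makes fold changes of low genes too small. The axis that sets 13 libraries apart was also revised once: a first version, centred within groups, marked 7 of the 13. The chaperones and the gene lists were chosen with earlier results of these data known, and their counts are descriptions. Named genes of the lists are examples by smallest p, and for likeness the closest genes by Pearson's r. The fits were tested on simulated data. Alternatives covered the pseudocount, filter, scaling, score, replicate block and left-out libraries.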

Additional observations from a re-analysis of the deposited data

Results flagged for a closer look

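At ZT7, Hspa1a and Hspa1b differed between cocaine and saline in opposite directions in the genotypes, with no overlap between treatments in either. In WT, every cocaine library was above every saline library, with a log2 difference of 0.15 for Hspa1a and 0.43 for Hspa1b. In iMSN-D2RKO every cocaine library was below every saline library, with -0.62 for Hspa1a and -0.47 for Hspa1b. The difference between the genotypes at ZT7 was not tested. Both genes are low, so these differences on the log2(FPKM + 1) scale understate the change in level. Their transcripts share sequence, and the iMSN-D2RKO groups at ZT7 hold a library that stands apart and the library with the largest total. Such opposite separation was found for 2 of 50 pairs of chaperone and time point and for 401 of 73215 pairs of gene and time point (0.548%).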

How the results depend on the processing

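Replicate numbers did not pair the libraries: deviations from group means had a mean correlation of -0.00315 within a number and 0.00258 between numbers, and no paired design is stated. With the replicate block, the counts of chaperones called by dark minus light stayed 0, 6, 4 and 2, and the genotype contrasts 5. Rhythmic chaperones (6, 6, 0 and 2 in WT saline, WT cocaine, iMSN-D2RKO saline and iMSN-D2RKO cocaine) depended on the libraries. Leaving out 1 replicate number at a time gave 0 to 4, 1 to 5, 0 to 1 and 0 to 2. Benjamini-Hochberg adjustment gave 4, 0, 0 and 0, beside 3.65%, 1.15%, 0.00701% and 0% of all genes. Without the 13 libraries that stand apart it was 1 in WT cocaine (2.34% of genes) and 1 in iMSN-D2RKO cocaine (1.89%). With the score removed it was 1 in iMSN-D2RKO cocaine (2.68%), and without the 7 of the first score also 1 (1.89%). Median-ratio scaling gave 1 in iMSN-D2RKO saline (2.67%). A limma F test of a 24 h cycle gave 7, 7, 0 and 0, beside 12.7%, 14.1%, 0.00701% and 0% of genes. Dixon's test at the 90% level gave 7, 6, 0 and 2, beside 10.3%, 7.81%, 3.03% and 1.29%.

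For dark minus light, leaving out replicates gave 0, 0 to 5, 0 to 3 and 0. WT saline had 1 call with median-ratio scaling, 1 with the score as a covariate, 2 without iMSN-D2RKO saline ZT7 replicate 1 and 3 without the 7 libraries. iMSN-D2RKO saline had 1 without the 13, 2 with the covariate and 2 without the 7, and iMSN-D2RKO cocaine 4 without the 13 and 6 with the covariate. For iMSN-D2RKO minus WT in saline the covariate gave 5. Over the genotype contrasts by time point there were 10 calls without the 13, 11 with the covariate, 8 without iMSN-D2RKO saline ZT7 replicate 1, and 0 to 3 with a replicate left out; at ZT15 after cocaine 1 call, Hspd1, was left without the 7. Over the cocaine contrasts 1 call appeared without the 7, Chordc1 at ZT19 in iMSN-D2RKO. The settings without the 7, without iMSN-D2RKO saline ZT7 replicate 1 and with Dixon's test at 90% were chosen after seeing the data. No share of all genes stands beside the counts of this paragraph, so a higher count does not show more calls than among other genes. The cause of these changes was not tested.

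Signs changed for small differences; ranges are over the fits that leave out 1 replicate number each. Dark minus light ran from -0.43 to 0.0472 for Hspa8 in WT saline, and in iMSN-D2RKO saline from -0.0906 to 0.36 for Hspa1a and from -0.0720 to 0.56 for Hspe1. Cocaine minus saline in WT, near 0 for these genes, ran from -0.0430 to 0.0555 for Hspa4, from -0.0529 to 0.12 for Hsp90aa1, from -0.0185 to 0.23 for Hsp90ab1, from -0.0644 to 0.0629 for Hspd1, from -0.14 to 0.0760 for Hspe1 and from -0.0756 to 0.16 for Chordc1. Without the 13 libraries it turned to 0.0125 for Hspa4 and 0.0468 for Hspd1. For Hspe1 it was -0.000868 with a pseudocount of 0.1 and -0.00105 with the covariate.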
